A study of Mus musculus with 5 samples.

Results

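The nuclear genes for complexes II, III, IV and V of the respiratory chain, for cytochrome c and for the factors that assemble these complexes were examined in mouse kidneys after ischemia. Members were taken by gene name from the deposited gene tables: the Sdh and Sdhaf genes of complex II, the Uqcr, Uqcc, Cyc1 and Bcs1l genes of complex III, Cycs, the Cox, Surf1 and Sco genes of complex IV, and the Atp5 genes and Atpif1 of complex V. The rule gave 69 of 35478 listed genes and used no measured value. The study asked how loss of the zinc finger factor Prdm16 from the tubule alters the injured kidney. The labels name the tissue as kidney, and the methods give cortex as the source of the RNA. Bulk RNA-seq was done on 2 Prdm16fl/fl mice (mice 1 and 3) and 3 Ksp-Cre/Prdm16fl/fl mice (mice 1, 2 and 3). Per the methods the mice were male, aged 7 to 8 weeks when used, and of strain C57BL/6J;129, whereas the labels name C57BL/6J. Every mouse carried floxed Prdm16 alleles and had an ischemic left kidney (the UIRI model): its renal pedicle was clamped for 35 minutes at 38.5°C, the right kidney was taken out on day 10, and the mouse was killed 24 hours later, on day 11. The controls lacked Cre, and Ksp-Cre drives recombination in renal tubular epithelium but not in the other cells of the kidney. Uninjured kidneys were not analysed here, so each difference below is one between genotypes after injury.

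The respiratory chain passes electrons from NADH and succinate to oxygen in the inner mitochondrial membrane. Complex II (succinate dehydrogenase) oxidizes succinate in the citric acid cycle, complex III hands the electrons to cytochrome c, complex IV (cytochrome c oxidase) gives them to oxygen, and complex V (ATP synthase) makes ATP from the proton gradient that complexes I, III and IV build. The proximal tubule is among the most mitochondria-rich epithelia of the body and depends on this route for the ATP that drives sodium reabsorption. Complexes III, IV and V also hold subunits encoded by mitochondrial DNA. No gene of the mitochondrial chromosome was listed in the tables, so those subunits were not analysed here.

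The 5 libraries held 14939040 to 16425161 counts, and no pair of them agreed within sampling noise. Levels are given as CPM, counts per 1000000 counts of the library after edgeR's TMM scaling, and, where genes are compared with each other, as the deposited TPM, which is also divided by gene length. Ksp-Cre mouse 3 stood apart from its group, with a correlation of log2 CPM of 0.957 and 0.960 to Ksp-Cre mice 1 and 2. Prdm16 itself was at 25.3 and 20.0 CPM in the Prdm16fl/fl mice and at 17.1, 17.0 and 18.0 CPM in the Ksp-Cre mice. Its log2 fold change of -0.38 ± 0.15 (SE) did not pass the test (edgeR's quasi-likelihood test, Benjamini-Hochberg adjusted p = 0.259), and the count covers the whole gene, in kidneys where cells without Cre keep an intact allele. The part of either in the size of this difference was not tested, and these counts do not by themselves show the loss of Prdm16. Of 16394 genes tested, 143 had an adjusted p under 0.05 and a lower level in the Ksp-Cre mice, and 17 a higher level.

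The c-ring genes of ATP synthase are shown first, because reads can tell these isoforms apart only by differences in their bases. In mammals, 3 nuclear genes, Atp5g1, Atp5g2 and Atp5g3, encode the same mature c subunit behind different import sequences. Over the last 228 coding bases of the GENCODE M21 transcripts, Atp5g1 and Atp5g2 shared 194 bases (85.1%), Atp5g1 and Atp5g3 182 bases (79.8%), and Atp5g2 and Atp5g3 179 bases (78.5%). Of the 34, 46 and 49 bases that differed, 32, 41 and 44 lay at the last position of a codon. The longest identical run in that stretch was 21 bases, shorter than the sequencing reads. The stretch of 60 coding bases with the most differences is shown for each gene, 5′ to 3′ on the coding strand, with capitals at the 18 positions where the genes are not all alike. All are on the minus strand of GRCm38, in coding exons at chr11:96073116-96073175 (Atp5g1), chr15:102663026-102663085 (Atp5g2) and chr2:73908605-73908664 (Atp5g3).
Atp5g1: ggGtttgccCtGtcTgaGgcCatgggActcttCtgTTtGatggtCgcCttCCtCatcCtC
Atp5g2: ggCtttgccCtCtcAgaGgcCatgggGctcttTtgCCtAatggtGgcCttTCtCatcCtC
Atp5g3: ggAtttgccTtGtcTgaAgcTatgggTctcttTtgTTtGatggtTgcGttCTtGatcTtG

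Promoters were searched for letters bound by factors known to act on nuclear respiratory genes, since the members moved together. RefSeq promoters (GRCm38.p6, 250 bases before to 50 after the gene start) matched 55 of the 69 members. The NRF1 motif GCGCNTGCGC, on either strand, was in 14 of the 55 (25.5%), against 9.64% of the promoters of genes tested here and 5.19% of all 27025 genes in the table. The ETS motif of GABPA, CCGGAAGT, was in 9 (16.4%, against 7.75% and 4.31%), the YY1 motif AAGATGGCG in 3 (5.45%, against 2.98% and 1.64%), and the ERR motif TCAAGGTCA in 2 (3.64%, against 0.364% and 0.466%). No match to a motif overlapped a match to another in a member's promoter. Of the 11 members whose levels fell significantly, 7 had a promoter in the table and 2 of those, Atp5k and Uqcr11, held one of the 4 motifs, against 24 of all 55 members with a promoter. A match is a stretch of letters and not a bound site. Windows of 30 bases around a match are shown for these 2 genes and, for contrast, for subunit genes described later whose difference did not pass the test, with the match in capitals and the strand of the gene printed 5′ to 3′. They lie on the minus strand at chr5:108434430-108434459 (Atp5k, NRF1), chr10:80406869-80406898 (Uqcr11, GABPA), chr5:115349056-115349085 (Cox6a1, NRF1 read on the other strand), chr15:102671070-102671099 (Atp5g2, NRF1), chr2:73911359-73911388 (Atp5g3, ERR read on the other strand), chr11:115419940-115419969 (Atp5h, GABPA read on the other strand) and chr13:74350231-74350260 (Sdha, NRF1 read on the other strand).
Atp5k: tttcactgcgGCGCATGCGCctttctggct
Uqcr11: ttctctcctccCCGGAAGTagatgtcaatg
Cox6a1: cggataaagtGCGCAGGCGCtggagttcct
Atp5g2: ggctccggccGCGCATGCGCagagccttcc
Atp5g3: tgttacaaagTGACCTTGAgcgtcttcccc
Atp5h: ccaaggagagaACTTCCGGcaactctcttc
Sdha: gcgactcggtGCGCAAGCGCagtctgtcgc

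Of the 69 members, 63 were expressed well enough to be tested, and all 63 had a log2 fold change below 0 in the Ksp-Cre mice, compared with 46% of all genes tested. The median was -0.72, that is 60.6% of the control level, while the median of all genes tested was 0.04. In 58 of the 63, every Ksp-Cre mouse lay below both Prdm16fl/fl mice, a pattern shown by 21.3% of all genes. The test called 11 members lower (edgeR's quasi-likelihood test, Benjamini-Hochberg adjusted p 0.0412 to 0.0496), beside a background of 0.872% of all genes, and 4 of these had a log2 fold change of -1 or below (background 0.628%). A further 27 had an adjusted p from 0.05 to under 0.1 (background 2.81%), and 54 had an unadjusted p under 0.05 (background 11.2%). No member rose.

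The number of calls depended on single mice. Without Ksp-Cre mouse 3, 50 members were called lower (background 11%), and without Ksp-Cre mouse 1 or Ksp-Cre mouse 2 edgeR called 0. Without Ksp-Cre mouse 1 or 2, 53 and 45 members had an unadjusted p under 0.05 in edgeR. Over all genes, in either direction, these counts were 2514 of 16201 and 2298 of 16176. Without Prdm16fl/fl mouse 1 or 3, only 1 control was left, and the median of the members was -0.82 and -0.62. DESeq2 called 45 on all 5 libraries (background 5.8%). The direction moved less: relative to the control mean, the median over members was -0.64, -0.78 and -0.82 on the log2 scale in Ksp-Cre mice 1, 2 and 3. The heat map of members by mouse shows these deviations gene by gene.

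**Figure D1:**
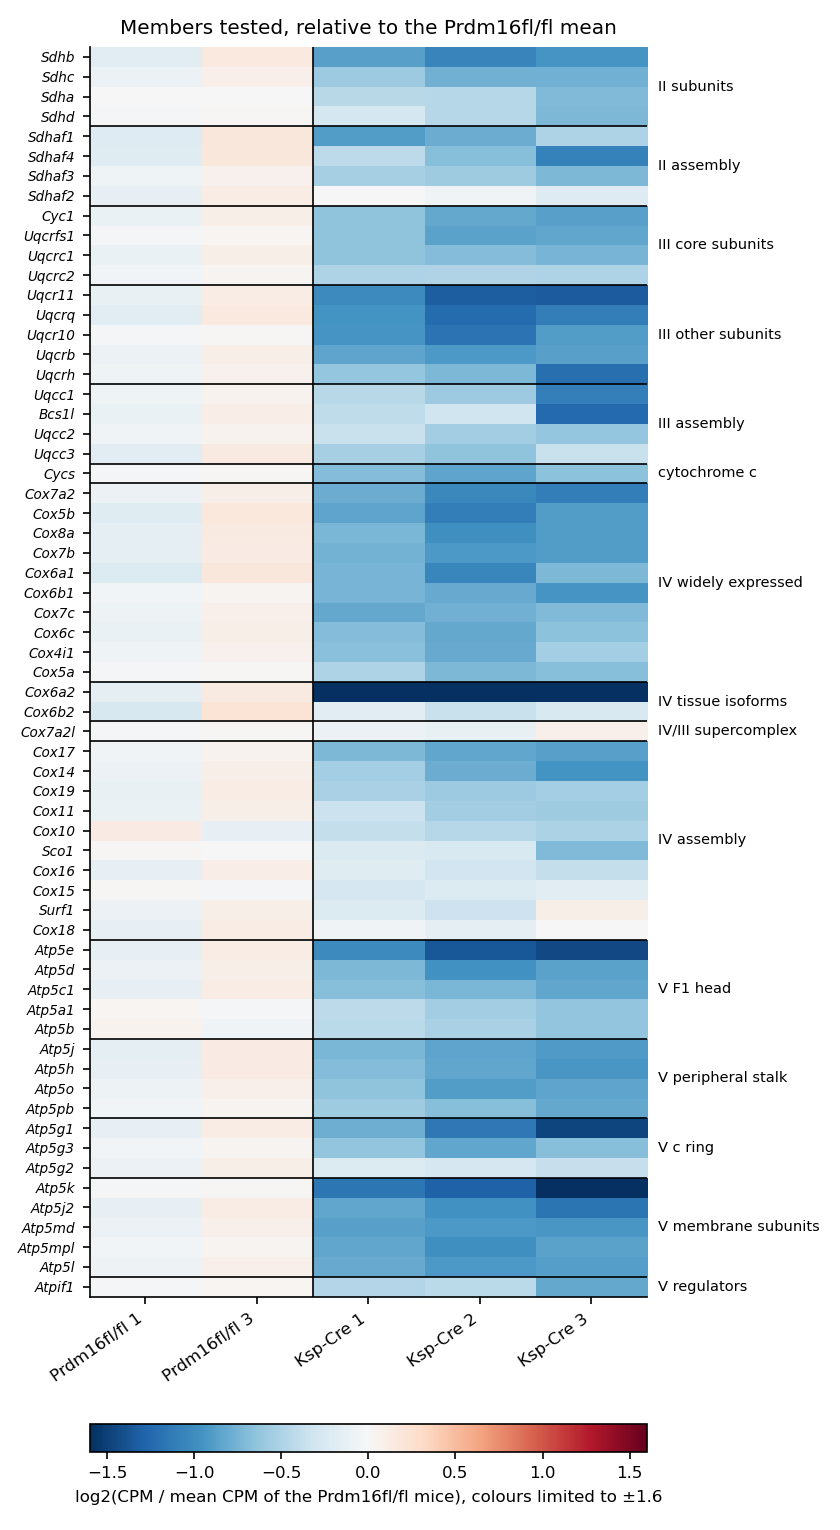
Each row is one of the 63 members tested and each column a mouse, with colour for log2 of CPM over the mean CPM of the Prdm16fl/fl mice, limited to ±1.6, and rows grouped by role. The Ksp-Cre columns are blue in nearly all rows; Cox6a2 is beyond the colour limit, and the rows of Sdhaf2, Cox7a2l, Surf1, Cox18 and Cox6b2 are pale.

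Among the 4 subunits of complex II, 4 of 4 lay below 0 without overlap between the genotypes and the median log2 fold change was -0.62. None passed the test in edgeR, although 4 had an unadjusted p under 0.05 and DESeq2 called 3. Sdhb, the iron-sulfur subunit that carries electrons from the flavin to the quinone site, was at 304 and 384 CPM in the Prdm16fl/fl mice and at 188, 165 and 179 CPM in the Ksp-Cre mice. The groups were far apart, and the log2 fold change of -0.96 ± 0.15 was just short of the threshold (adjusted p = 0.0505). Sdha, the flavoprotein that binds succinate, was at 628 and 618 CPM against 457, 456 and 382 CPM (log2 fold change -0.53 ± 0.14, adjusted p = 0.131). The membrane anchors gave -0.70 ± 0.14 for Sdhc (adjusted p = 0.0696) and -0.48 ± 0.16 for Sdhd (adjusted p = 0.189). The catalytic and anchor subunits thus all lay below 0, and the values ranged from -0.96 to -0.48. Of the assembly factors, Sdhaf1, which helps to fit the iron-sulfur clusters into Sdhb, was at 42.2 and 54.9 CPM against 26.1, 27.9 and 34.3 CPM, and Sdhaf2, which attaches the flavin to Sdha, was at 41.5 and 49.7 CPM against 45.6, 43.9 and 39.6 CPM. Sdhaf2 overlapped between the genotypes (-0.08 ± 0.13), whereas Sdhaf1 did not (-0.72 ± 0.18, adjusted p = 0.113). The 4 complex II factors had a median of -0.65.

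In complex III the calls were among the small supernumerary subunits, of which 4 of 5 passed the test and the median was -0.99. Uqcr11, the smallest of them, was at 157 and 184 CPM in the Prdm16fl/fl mice and at 83.8, 68.1 and 67.6 CPM in the Ksp-Cre mice. It fell to 42.9% of control (log2 fold change -1.22 ± 0.15, adjusted p = 0.0412). Uqcrq, which sits against cytochrome b, was at 289 and 362 CPM against 167, 139 and 151 CPM and fell to 46.8% (-1.10 ± 0.15, adjusted p = 0.0447). Uqcr10 was at 291 and 302 CPM against 155, 131 and 160 CPM (-0.99 ± 0.13, adjusted p = 0.0412), and Uqcrb, which contacts the ubiquinone site, at 280 and 318 CPM against 166, 158 and 164 CPM (-0.88 ± 0.12, adjusted p = 0.0431). In each of these 4 genes the highest Ksp-Cre mouse lay below the lower control. Uqcrh, the hinge protein beside cytochrome c1, was at 320 and 354 CPM against 220, 204 and 146 CPM. Ksp-Cre mouse 3 was the lowest, and the change of -0.82 ± 0.20 did not pass (adjusted p = 0.108). The 5 supernumerary genes have a median merged exon length of 548 bp, against 1605 bp for the 4 core genes. With the trend on length and GC content removed, the medians were -0.65 and -0.59, and edgeR called 0 in either.

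The 4 core subunits of complex III had a median of -0.73, with all 4 below 0 without overlap; edgeR called none, 4 had an unadjusted p under 0.05 and DESeq2 called 4. Cyc1, the heme-bearing cytochrome c1, was at 316 and 363 CPM against 218, 192 and 186 CPM (-0.78 ± 0.14, adjusted p = 0.0598). Uqcrfs1, the Rieske iron-sulfur protein, was at 386 and 405 CPM against 253, 219 and 222 CPM (-0.77 ± 0.13, adjusted p = 0.0548). The core protein Uqcrc2 had the narrowest spread within the Ksp-Cre group, at 235, 238 and 235 CPM against 322 and 340 CPM (-0.49 ± 0.11, adjusted p = 0.103); 26.7% of its merged exon length lies opposite a gene on the other strand, and counts there may be shared. The assembly factors Uqcc1, Uqcc2, Uqcc3 and Bcs1l gave a median of -0.55, and none passed in edgeR (3 at an unadjusted p under 0.05) or DESeq2. Bcs1l, the AAA protein that inserts the Rieske subunit, was at 22.9 and 26.5 CPM against 18.7, 19.8 and 10.4 CPM (-0.60 ± 0.29, adjusted p = 0.327). Its level in Ksp-Cre mouse 3 was well under that in the other two. Cycs, the somatic cytochrome c that carries electrons from complex III to complex IV, was at 563 and 578 CPM against 352, 319 and 363 CPM (-0.73 ± 0.13, adjusted p = 0.0598), and the testis cytochrome c gene Cyct, outside the rule, had no count in any library.

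The 10 widely expressed subunits of complex IV gave values close together. All 10 lay below 0 with no overlap between the genotypes, the median was -0.83, and the SD of the 10 log2 fold changes was 0.11, against 0.22 in complexes II and III and 0.26 in complex V. Cox7a2, the widely expressed form of subunit VIIa, was at 270 and 308 CPM in the Prdm16fl/fl mice and at 166, 141 and 134 CPM in the Ksp-Cre mice, and it was the member of this group that passed the test (-0.98 ± 0.14, adjusted p = 0.0496). The other 9 had adjusted p-values from 0.0505 to 0.0895, and DESeq2 called all 10. Cox4i1, the subunit through which ATP inhibits the enzyme, was at 739 and 815 CPM against 488, 446 and 535 CPM (-0.67 ± 0.15, adjusted p = 0.0883). Cox5b, a zinc-binding matrix subunit, was at 378 and 483 CPM against 241, 201 and 232 CPM (-0.94 ± 0.16, adjusted p = 0.0564). Cox6b1, which faces the intermembrane space where cytochrome c docks, was at 400 and 426 CPM against 246, 237 and 215 CPM (-0.83 ± 0.13, adjusted p = 0.0505). Cox5a, at 308 and 316 CPM against 222, 190 and 195 CPM, had the value nearest to 0 of the group (-0.62 ± 0.13, adjusted p = 0.0772).

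**Figure D2:**
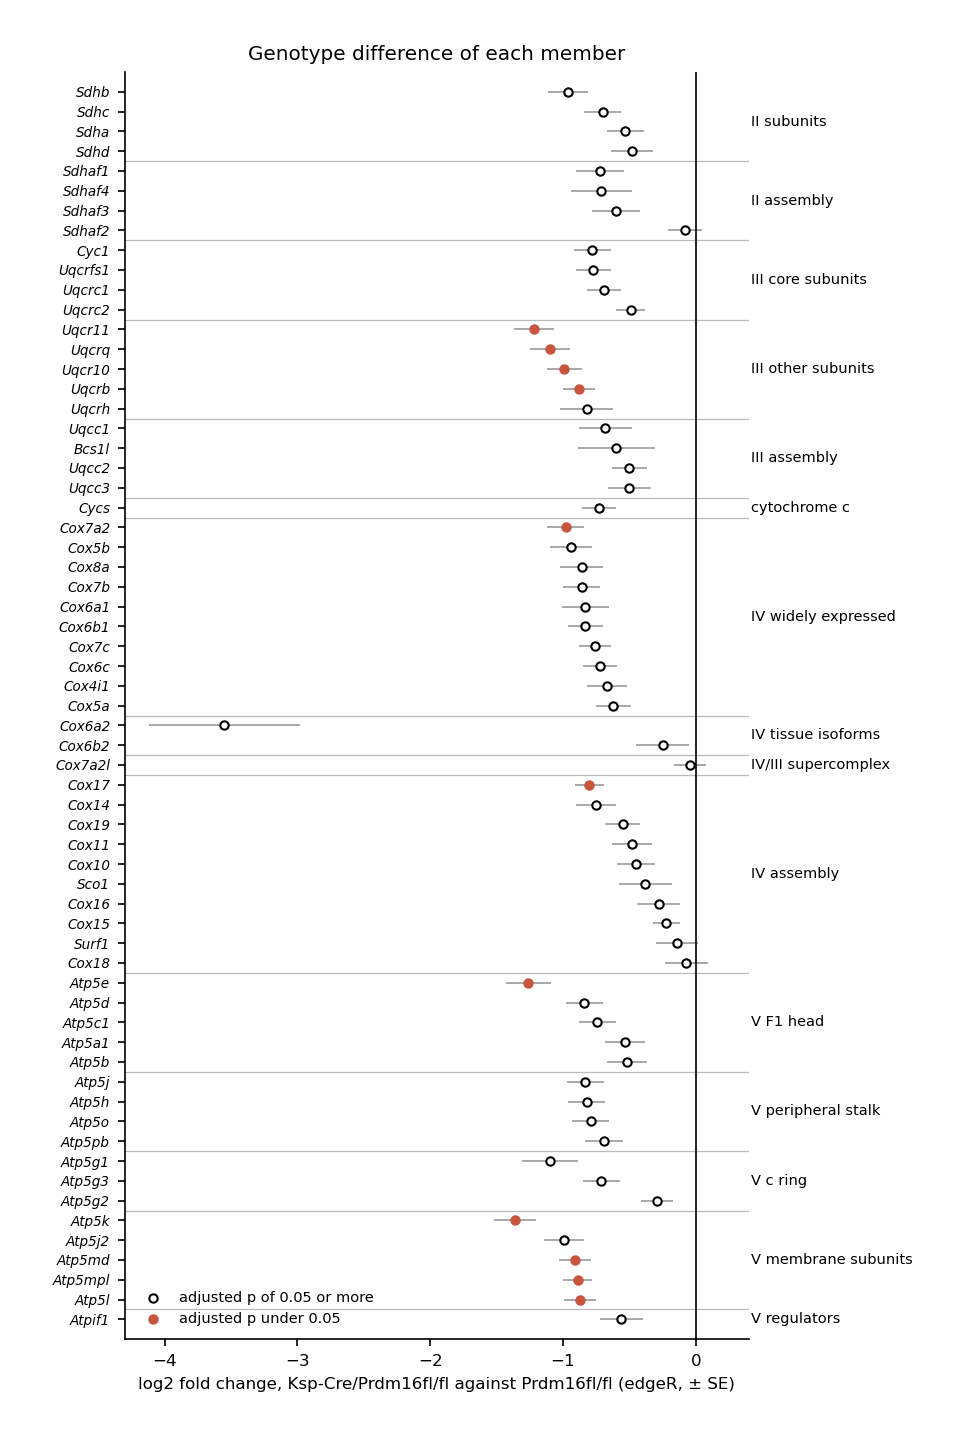
Points are edgeR's log2 fold changes of the 63 members tested, Ksp-Cre/Prdm16fl/fl against Prdm16fl/fl, with bars of 1 SE; filled points had an adjusted p under 0.05. All points lie left of 0, the 11 filled ones are mostly supernumerary subunits of complexes III and V, and Cox6a2 lies farthest left at -3.55. With the trend on length and GC content removed, edgeR called 0 members.

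Several subunits of complex IV exist as isoforms from separate genes, with heart and muscle, lung or testis forms beside a form that most tissues use. In these kidneys the tissue forms were scarce. Cox7b2 and Cox8c had no count in any library, which allows a level of up to 0.183 to 0.201 CPM (3 counts, counting error only). Sco2, an assembly factor and not a tissue form, also had no count. However, 94.4% of its merged exon length is shared with neighbouring genes, and its reads could be left out of counting. Cox8b had 1 count in Ksp-Cre mouse 1 and 0 elsewhere, Cox7a1 had 4 and 3 counts against 4, 5 and 3, and Cox4i2 had 9 and 11 counts against 4, 8 and 9. These 6 genes, Sco2 among them, had too few counts to be tested. Cox6b2, known from testis, was expressed at 11.7 and 16.3 CPM against 12.5, 10.9 and 11.8 CPM and overlapped between the genotypes (-0.25 ± 0.20, adjusted p = 0.536).

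Cox6a2, the heart and muscle form of subunit VIa, had the widest difference of any member. It had 54 and 62 counts in the Prdm16fl/fl mice and 7, 9 and 1 in the Ksp-Cre mice, or 3.64 and 4.45 CPM against 0.397, 0.532 and 0.0666 CPM. The groups did not overlap, the fitted level was 8.56% of control, and the log2 fold change of -3.55 ± 0.57 was short of the threshold (adjusted p = 0.0541; DESeq2 adjusted p = 1.08e-05). It entered the test only through the controls: of the 63 members tested it was the one without at least 10 counts in every library. Markers of skeletal and heart muscle summed to 3.30 and 2.30 CPM in the controls and 2.50, 2.48 and 1.13 CPM in the Ksp-Cre mice; of the 6, Ckm had no count in either control, and Acta1 and Actn2 were the 2 high enough to test (0.27 ± 0.59 and -1.42 ± 0.68). The part of other cells in the Cox6a2 difference was not tested. Next to its partner it stayed a minor form: on the TPM scale Cox6a2 was at 12.7 and 14.1 TPM against 1.62, 2.16 and 0.242 TPM, whereas Cox6a1 was at 2170 and 2600 TPM against 1760, 1430 and 1600 TPM.

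Cox7a2l, a relative of Cox7a2 that joins complexes III and IV in supercomplexes, kept a level near that of the controls. It was at 141 and 145 CPM in the Prdm16fl/fl mice and at 134, 132 and 151 CPM in the Ksp-Cre mice (log2 fold change -0.04 ± 0.12, adjusted p = 0.889). On the TPM scale it was at 281 and 263 TPM against 313, 308 and 315 TPM, and with plain library size scaling its log2 fold change was 0.07, so its direction depends on the scaling. As a share of the TPM of Cox7a2 and Cox7a2l together, which scaling between mice cannot alter, it made 25.5% and 23.6% in the Prdm16fl/fl mice and 34.7%, 38.0% and 42.5% in the Ksp-Cre mice. The log2 ratio was higher in 3 of 3 Ksp-Cre mice than in both controls, by 0.94 in the mean. The exact permutation p was 0.2 (two-sided, 0.229 adjusted over the 8 isoform ratios compared). This two-sided p doubles the smaller one-sided p, and 0.2 is the smallest that it can give for 2 against 3 mice. The log2 ratio of Cox6a2 to Cox6a1 differed by -3.03 and that of Cox6b2 to Cox6b1 by 0.60, each without overlap and at the same p. That of Cox7a1 to Cox7a2 differed by 0.94, also without overlap and at the same p, on 3 to 5 counts of Cox7a1 per mouse. Both ratios are taken to Cox7a2, which was itself lower (-0.98), so a gene at an even level gives a similar shift. The Cox7a1 ratio therefore cannot show whether the shift is particular to Cox7a2l. The log2 ratio of Cox4i2 to Cox4i1 overlapped (-0.08, exact permutation p = 1).

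**Figure D3:**
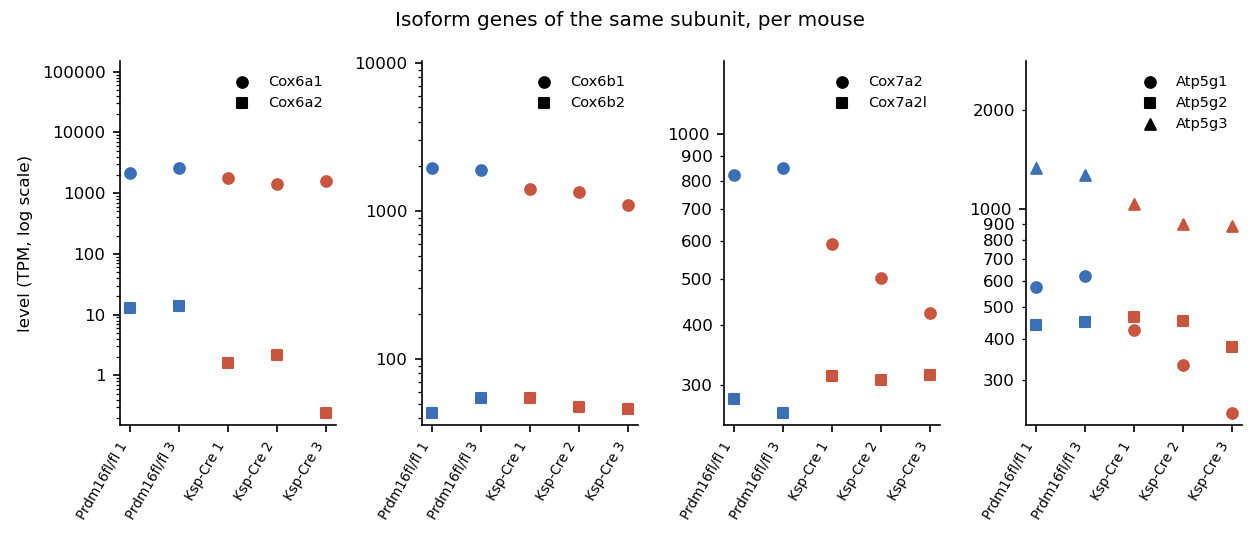
Levels in TPM on log axes for isoform genes of subunits VIa, VIb, VIIa and c, with a point for each gene in each mouse (blue, Prdm16fl/fl; red, Ksp-Cre/Prdm16fl/fl). Cox7a2 lies closer to Cox7a2l in the Ksp-Cre mice than in the controls, and Atp5g1 lies above Atp5g2 in the controls and below it in the Ksp-Cre mice.

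Of the 11 assembly factors of complex IV, 10 were tested, 10 lay below 0, the median was -0.41 and 1 passed. These factors have a median merged exon length of 2109 bp, against 557 bp for the widely expressed subunits, and with the trend on length and GC content removed the medians were -0.34 and -0.53. That gene was Cox17, the copper chaperone that loads the copper sites of the enzyme, at 87.0 and 93.4 CPM against 54.7, 50.6 and 49.6 CPM (-0.80 ± 0.11, adjusted p = 0.0412). Sco1, which takes copper from Cox17 to subunit II, was at 17.3 and 17.0 CPM against 14.6, 14.5 and 10.5 CPM (-0.38 ± 0.20, adjusted p = 0.356). Surf1, an early assembly factor, was at 48.1 and 54.9 CPM against 44.1, 41.1 and 55.0 CPM, and its groups overlapped because Ksp-Cre mouse 3 was the highest of the 5. Cox18, which exports the end of subunit II across the membrane, also overlapped, at 13.2 ± 1.52 CPM (SD, n = 2) against 12.6 ± 0.602 CPM (SD, n = 3). The heme A enzymes Cox10 and Cox15 gave -0.45 ± 0.14 and -0.22 ± 0.10. For Cox16, 85.1% of the merged exon length is shared with a gene on the same strand, and its value of -0.28 ± 0.16 is uncertain for that reason. Over complexes II to IV, the 18 assembly factors tested had a median of -0.50 with 1 called, and the 41 widely expressed subunits and cytochrome c of complexes II to V a median of -0.82 with 10 called. Their median lengths were 1646 and 792 bp, and with the length and GC trend removed the medians were -0.39 and -0.59, with 0 called by edgeR in either.

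In complex V, 5 of 17 subunits were called, 4 in the membrane part and 1 in the head. Of the 5 accessory membrane subunits, 4 passed the test, all 5 lay below 0 without overlap, and the median was -0.91, against -0.74 for the F1 head; with the trend of all genes on length and GC content removed, these medians were -0.59 and -0.63, and the order turned. Atp5k, the subunit e that helps ATP synthase dimers to form, was at 78.3 and 80.3 CPM in the Prdm16fl/fl mice and at 35.5, 32.3 and 25.1 CPM in the Ksp-Cre mice, and fell to 39.1% of control (-1.36 ± 0.16, adjusted p = 0.0412). Atp5l, the subunit g that pairs with it, was at 357 and 400 CPM against 216, 200 and 206 CPM (-0.87 ± 0.12, adjusted p = 0.0448). Atp5md was at 216 and 245 CPM against 127, 122 and 121 CPM (-0.91 ± 0.12, adjusted p = 0.0412), and Atp5mpl at 215 and 227 CPM against 124, 112 and 122 CPM (-0.89 ± 0.11, adjusted p = 0.0412). Both are small subunits of the membrane sector, and in both the highest Ksp-Cre mouse lay below the lower control. Atp5j2, the subunit f, was at 291 and 345 CPM against 178, 162 and 141 CPM and was short of the threshold (-0.99 ± 0.15, adjusted p = 0.0505).

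In the F1 head, Atp5e, the subunit epsilon of the central stalk, was at 206 and 244 CPM against 111, 88.1 and 82.4 CPM and fell to 41.7% of control (-1.26 ± 0.17, adjusted p = 0.0412). The catalytic subunit Atp5b was the most abundant member, at 2270 and 2100 CPM against 1620, 1530 and 1420 CPM, and its difference was less than that of Atp5e (-0.52 ± 0.15, adjusted p = 0.155). Atp5a1, which alternates with it in the head, gave -0.53 ± 0.15 (adjusted p = 0.142), and the rotor subunits Atp5c1 and Atp5d gave -0.74 ± 0.14 and -0.84 ± 0.14. The head thus covered the range from -1.26 to -0.52 around a median of -0.74. The peripheral stalk, which holds the head still, was more uniform in this fit: Atp5pb, Atp5o, Atp5h and Atp5j lay from -0.83 to -0.69. None of them passed in edgeR, 4 had an unadjusted p under 0.05 and DESeq2 called 4. With the length and GC trend removed, Atp5j was at -0.86, Atp5h at -0.50 and Atp5o at -0.49, and Atp5pb had no value. The head then ranged from -0.87 (Atp5e) to -0.42 (Atp5b), so the stalk was no longer clearly the more uniform part. Atp5j stood at 328 and 395 CPM against 217, 201 and 193 CPM (-0.83 ± 0.14, adjusted p = 0.0548). Atpif1, the peptide that blocks ATP hydrolysis by the enzyme when the proton gradient collapses, was at 290 and 304 CPM against 214, 221 and 169 CPM (-0.56 ± 0.16, adjusted p = 0.139).

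The genes of the c ring, whose coding ends are printed above, did not keep their proportions. Atp5g1 was at 251 and 297 CPM in the Prdm16fl/fl mice and at 159, 124 and 99.3 CPM in the Ksp-Cre mice (-1.10 ± 0.21, adjusted p = 0.0704). Atp5g3 was at 809 and 854 CPM against 535, 468 and 516 CPM (-0.71 ± 0.14, adjusted p = 0.0681), and Atp5g2 at 124 and 141 CPM against 113, 110 and 102 CPM (-0.29 ± 0.12, adjusted p = 0.258). As a share of the TPM of all 3 genes, Atp5g1 made 25.5% ± 1.33 (SD, n = 2) in the Prdm16fl/fl mice and 19.3% ± 3.21 (SD, n = 3) in the Ksp-Cre mice. Atp5g2 made 19.0% ± 0.346 and 25.4% ± 1.34, and Atp5g3 55.4% ± 1.68 and 55.3% ± 3.25. Atp5g1 was above Atp5g2 in both controls and below it in all 3 Ksp-Cre mice. The log2 ratio of Atp5g1 to Atp5g2 was 0.39 and 0.46 in the Prdm16fl/fl mice and -0.13, -0.44 and -0.66 in the Ksp-Cre mice. The difference was -0.83 with an exact permutation p of 0.2, again the smallest that this test can give. The log2 ratios of Atp5g1 and of Atp5g2 to Atp5g3 differed by -0.41 and 0.42, both without overlap and at the same exact permutation p.

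Summed over subunits, each complex made up a smaller share of the TPM of the listed genes in the Ksp-Cre mice. Transcripts of the mitochondrial chromosome are not part of that total. The 4 subunits of complex II summed to 2325 and 2353 TPM in the Prdm16fl/fl mice and to 1940, 1759 and 1479 TPM in the Ksp-Cre mice, 73.8% of the control mean. Complex III (9 genes) summed to 6999 and 7085 TPM against 5087, 4579 and 3975 TPM (64.6%), complex IV (10 genes) to 15200 and 16240 TPM against 11570, 10310 and 10080 TPM (67.8%), and complex V (17 genes) to 17660 and 17350 TPM against 13510, 12230 and 10450 TPM (68.9%). No complex overlapped between the genotypes. All 41 genes together took 4.26% and 4.34% of the TPM of a control and 3.24%, 2.91% and 2.63% of that of a Ksp-Cre mouse. Within a complex, levels per length in the controls ranged 1.53-fold in complex II (Sdhd to Sdhc), 3.51-fold in complex III (Uqcrc2 to Uqcrh), 11.0-fold in complex IV (Cox5a to Cox6a1) and 13.4-fold in complex V (Atp5j to Atp5b). In the Ksp-Cre mice the ranges were 1.31-fold (Sdha to Sdhc), 3.52-fold (Uqcrq to Uqcrh), 9.93-fold (Cox5a to Cox4i1) and 16.5-fold (Atp5j to Atp5b). The lowest and highest genes were thus not all the same as in the controls. These ranges also depend on the merged exon length that divides TPM, 3153 bp for Cox5a and 4137 bp for Atp5j. In CPM, which is not divided by length, the control mean of Cox5a was 312, near 338 for Cox7c. That of Atp5j was 361, above 79.3 for Atp5k.

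**Figure D4:**
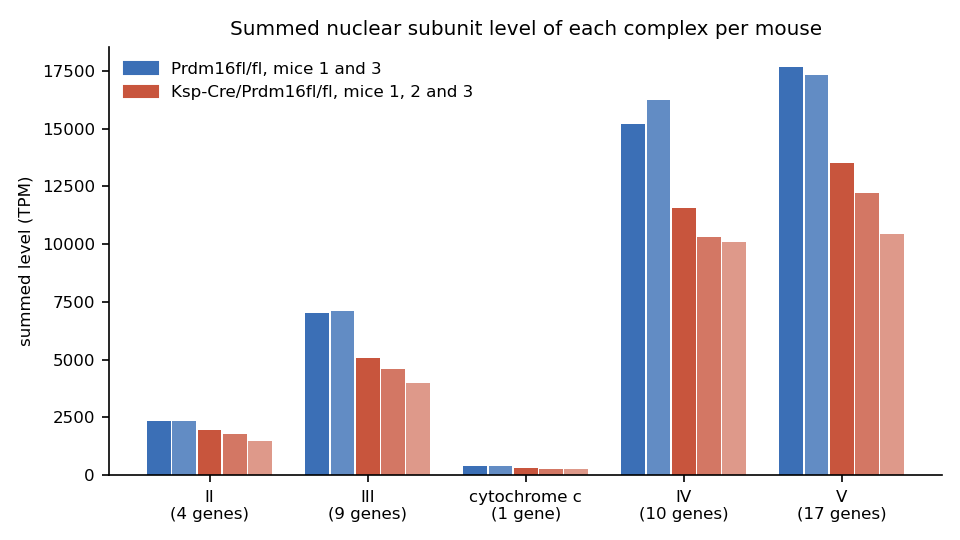
Bars are the deposited TPM summed over the widely expressed nuclear subunits of each complex and for cytochrome c, with a bar for each mouse in the order Prdm16fl/fl 1 and 3 (blue) and Ksp-Cre/Prdm16fl/fl 1, 2 and 3 (red). In every complex the highest red bar is below the lower blue bar.

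Transcript length moved with the size of the difference. Across the 41 subunits and cytochrome c, the log2 fold change and log2 merged exon length gave Pearson's r of 0.509 and Spearman's rho of 0.552; these points are genes of the same 5 libraries and are not independent. The 22 that were shorter than 1000 bp had a median of -0.87 and the other 19 a median of -0.71. Short genes were also lower in general: all 929 tested genes under 1000 bp had a median of -0.31, and the 15465 longer ones 0.05. Atp5k (320 bp), Atp5e (414 bp) and Uqcr11 (436 bp), the 3 called members with the largest difference, were also among the shortest. When the trend of all genes with length and GC content was removed from the counts, the median of the members was -0.50. Of 61, 56 lay below 0, and edgeR called 0 (background of calls 0.42%). An unadjusted p under 0.05 in edgeR was reached by 47 members, beside 2809 of 15222 genes in either direction. The relation with length was then -0.111 (Pearson) and -0.104 (Spearman) over 39 genes. Under that correction Atp5k was at -0.91, Atp5e at -0.87 and Uqcr11 at -0.85, while the 5 members above 0 were Cox7a2l at 0.17, Cox6b2 at 0.07, Cox18 at 0.03, Surf1 at 0.02 and Atp5g2 at 0.01. Which part of the length trend belongs to the libraries and which to the kidneys was not tested.

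**Figure D5:**
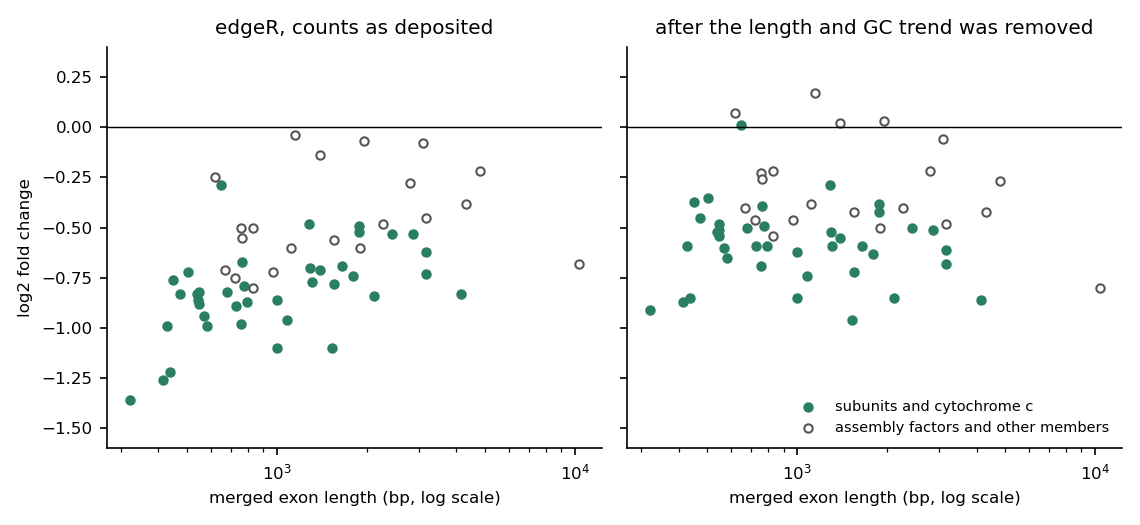
Log2 fold change of the members against merged exon length (log axis), from the counts as deposited (left) and after removal of the trend with length and GC content over all genes (right). The 61 tested members with a GC value are shown except Cox6a2, which lies below the axis; over the same 39 subunits r was 0.505 on the left and -0.111 on the right.

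Genes of the same route outside the rule were also below 0. The 37 nuclear subunits of complex I tested had a median of -0.84, with 12 called lower (background 0.872%). Of 23 further tested factors for complexes III, IV and V and cytochrome c, 20 lay below 0, the median was -0.50, and none passed in edgeR. An unadjusted p under 0.05 was reached by 12 (background 11.2%), and DESeq2 called 8 (background 5.8%). Ndufa4, which copurifies with complex IV, was at 371 and 360 CPM against 221, 194 and 219 CPM (-0.79 ± 0.12, adjusted p = 0.0523). Hccs, the enzyme that attaches heme to cytochrome c, was at 28.6 and 29.6 CPM against 32.1, 29.0 and 27.7 CPM (0.03 ± 0.13, adjusted p = 0.930).

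Cell type markers were read beside the members. As a background over all genes, edgeR called 0.872% lower and 0.104% higher, and DESeq2 called 895 lower and 305 higher. In edgeR, 3090 of 16394 genes had an unadjusted p under 0.05 in either direction. The 14 proximal tubule markers all lay below 0, with a median of -1.35, and 4 passed. They summed to 25500 and 31800 CPM in the Prdm16fl/fl mice and to 8290, 10300 and 12700 CPM in the Ksp-Cre mice. Kap made up a large part of these sums, at 12500 and 18200 CPM against 3000, 4120 and 7400 CPM. Relative to the control mean, the median over the 14 markers was -1.29, -1.15 and -1.71 on the log2 scale in Ksp-Cre mice 1, 2 and 3. Medians of the markers of thick ascending limb, distal convoluted tubule, principal cells and intercalated cells (4 genes each) were -0.68, -1.0, -0.60 and -0.91; edgeR called 0 of them, 1, 1, 1 and 3 had an unadjusted p under 0.05, and DESeq2 called 1, 0, 0 and 2. The 8 injured tubule markers had a median of 1.14, with 0 called by edgeR, 7 at an unadjusted p under 0.05 and 6 called by DESeq2. They summed to 13500 and 14600 CPM against 29200, 30400 and 36000 CPM. Spp1 made up most of these sums, at 12300 and 13400 CPM against 27000, 28100 and 33800 CPM. For the 5 fibroblast markers the median was 0.63 (0 called by edgeR, 4 at an unadjusted p under 0.05, 2 called by DESeq2), and for the 5 red blood cell markers it was 3.93 (0, 5 and 5), with sums of 6.67 and 10.8 CPM against 151, 150 and 40.5 CPM. Podocyte markers had a median of -0.74 with 1 called. Medians of endothelium, macrophages, lymphocytes and smooth muscle lay from -0.58 to 0.17. The male germ cell markers had no count, those of brown adipocytes summed to at most 0.650 CPM, and of the white adipocyte markers only Fabp4 was high enough to test (0.49 ± 0.27). In bulk tissue, fewer cells of a type and less RNA per cell cannot be told apart, and the part of cell composition in the members' difference was not tested.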

How the data were processed

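RNA-seq gene tables of 5 mice (kidney cortex) were used. Per the labels, total RNA was extracted with Trizol; the study describes sequencing of poly(A) RNA in paired reads. The submitters' processing notes name CASAVA, featureCounts 2.0.1 and DESeq2 1.16.1, and the human build hg38, although the tables list mouse RefSeq genes; the aligner and the strand setting are not given in the sources used here, so reads of overlapping antisense genes cannot be told apart, and no coordinates of the tables are printed. The deposited counts are whole reads per gene, not normalized. The deposited TPM was computed by the authors from those counts and merged exon length, and recomputation matched it. In the tables, 5 broken lines were rejoined; 9845 of 35478 genes had no count. Groups came from the labels, which name each library as a separate mouse.

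Differences between genotypes were tested on all 5 libraries with edgeR 4.0.16 (R 4.3.3): TMM scaling, the default expression filter (16394 genes kept), quasi-likelihood fit and two-sided test, with Benjamini-Hochberg adjustment over all genes tested and a threshold of 0.05. Errors of fold changes are SE. The script was tested on simulated data. Isoform ratios (log2 TPM) were compared by two-sided exact permutation over mice. Alternatives were DESeq2 1.42.0, RLE size factors, library size scaling, other filters, removal of the trend on length and GC content (loess), a replicate block, and leaving out each mouse. The same-numbered mice did not deviate together (r of 0.00102 for number 1 and -0.022 for number 3), and 2 shared numbers do not pair the samples.

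The members, their roles, the marker lists and the rule for naming genes (members called, the highest and lowest log2 fold change in each role, the isoform sets and Prdm16) were chosen with earlier results of these data known. The other members named were added for their roles after their values were seen. Gene names follow the tables. Sequences are from RefSeq promoters and GENCODE M21 transcripts.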

Additional observations from a re-analysis of the deposited data

How the results depend on the processing

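Members called lower numbered 11 in edgeR, 45 in DESeq2, 29 with no filter on low counts, and 4 when a log2 difference of -1 or below was also required. They numbered 0 with library size scaling, with the length and GC trend removed, or with the mouse number as a replicate block. In these runs 48, 47 and 44 members had an unadjusted p under 0.05 in edgeR. The counts over all genes, in either direction, were 3492 of 16394, 2809 of 15222 and 2061 of 16394. Leaving out each Ksp-Cre mouse gave 0 to 50 members called lower. Over all genes, 143 were lower and 17 higher; these became 895 and 305 in DESeq2, 64 and 8 with the trend removed, 408 and 63 without the filter, and 0 and 0 with the replicate block; library size scaling gave 37 lower, and leaving out each mouse gave 0 to 1787 lower and 0 to 1266 higher. The mouse numbers are no pairing known from the design, and with the block the median of the members was -0.74. All 11 called members were shared with DESeq2, RLE size factors, both other filters and the fit without Ksp-Cre mouse 3.

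The median log2 fold change of the members stayed below 0 in each alternative run: it was -0.50 with the trend removed, -0.61 with library size scaling, which moved the median of all genes from 0.04 to 0.15, and -0.82 to -0.62 when each mouse was left out. With the trend removed, medians were -0.39 (complex II assembly), -0.59 (III core), -0.65 (III other), -0.53 (IV widely expressed), -0.63 (F1 head), -0.50 (peripheral stalk), -0.55 (c ring) and -0.59 (membrane subunits). With library size scaling they were -0.50 (complex II subunits), -0.62 (III core), -0.71 (IV widely expressed), -0.63 (F1 head), -0.60 (c ring) and -0.79 (membrane subunits). Leaving out each mouse gave -0.80 to -0.63 (III core), -0.93 to -0.69 (IV widely expressed), -0.87 to -0.61 (F1 head) and -1.0 to -0.85 (membrane subunits), and an SD among the complex II subunits of 0.14 to 0.29.

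Single genes near 0 changed sign. With the trend removed, Atp5g2 was at 0.01, Surf1 at 0.02, Cox18 at 0.03, Cox6b2 at 0.07 and Cox7a2l at 0.17. With library size scaling, Cox18 was at 0.05, Cox7a2l at 0.07 and Sdhaf2 at 0.04. Leaving out each mouse gave -0.18 to 0.05 for Cox18, -0.48 to 0.01 for Cox6b2 and -0.21 to 0.05 for Sdhaf2. Summed as TMM-scaled CPM in place of TPM, the log2 ratios of complexes II, III, IV and V and cytochrome c were -0.64, -0.82, -0.79, -0.69 and -0.73, against -0.44, -0.63, -0.56, -0.54 and -0.49. The Cox4i2 to Cox4i1 ratio, at few counts, was 0.11 with TPM + 1, 0.03 with CPM, and -0.29 to 0.30 when each mouse was left out. The causes of these changes were not tested.

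Adjusted p-values of the called members lie just under the threshold, with 2 controls against 3 mice; intervals and limits cover counting error only where given, and no uninjured kidney gives a reference level.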
